A study of Mus musculus with 16 samples.

Results

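The expression of 6 mouse genes that handle glutamate was described: the vesicular glutamate transporters Slc17a6, Slc17a7 and Slc17a8, the glutamate uptake carriers Slc1a1 and Slc1a6, and the glutaminase Gls2. The genes were found by symbol among the non-control spots of the arrays, and every probe of each was kept. They gave 9 probes of the 41174 on the array, and 6 of 27962 gene names. Slc17a6, Slc17a8 and Slc1a1 had a pair of probes each, and Slc17a7, Slc1a6 and Gls2 had 1 probe. Probes of the same gene read the same RNA and were not counted as replicates.

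RNA of whole lumbar spinal cord came from B6SJL mice of 2 genotypes and 2 ages, with 4 arrays in each of 4 groups and 16 arrays in all. The SOD1G93A mice carried a mutant human superoxide dismutase transgene, which causes a motor neuron disease like amyotrophic lateral sclerosis, and the wild-type mice were NonTg. Both genotypes were taken at 40 days and at 80 days, ages before motor signs appear in this model. Each cord was labelled with Cy3 and hybridised together with the same Cy5 reference, RNA of neonatal heart, liver and kidney of both genotypes, so each value was the log2 ratio of cord over reference. The transgene carries many copies of mutant SOD1 and its protein is made in many cell types, so a genotype difference is one of the whole cord. In tissue RNA, fewer cells of a type and less RNA per cell cannot be told apart.

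Glutamate is the main excitatory transmitter of the spinal cord. A vesicular transporter loads it into synaptic vesicles, plasma membrane carriers take it up again, and glutaminase makes it from glutamine. VGLUT2, the product of Slc17a6, marks most excitatory neurons whose cell bodies lie in the cord. VGLUT1, from Slc17a7, is found in the cord mainly in endings of large sensory axons and of cortical axons, whose cell bodies lie elsewhere. VGLUT3, from Slc17a8, is made by few neurons. Slc1a1 encodes a neuronal carrier of glutamate and cysteine, Slc1a6 a carrier best known from cerebellar Purkinje cells, and Gls2 the liver-type glutaminase. Excess extracellular glutamate is a long-studied mechanism of motor neuron injury.

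The probes that decided the values below are given with their positions on mouse build mm7 as the files state them. Slc17a6 A_51_P174996, which carried the calls of its gene, and the measurable Slc17a8 probe are printed whole, 5′ to 3′. Of Slc17a6 A_52_P8197 and the Slc1a1 pair only the first 30 bases are shown, because the paired probes of these genes gave different answers. The Slc17a6 pair lay at chr7:47901886-47901945 and chr7:47903400-47903459 on the plus strand, with starts 1514 bases apart. The Slc17a8 probe lay at chr10:89142186-89142245 on the minus strand. The Slc1a1 pair lay at chr19:28613680-28613739 and chr19:28612364-28612423 on the plus strand, 1316 bases apart. The files tie each probe to its gene's transcript and do not mark coding or untranslated sequence.
Slc17a6 A_51_P174996: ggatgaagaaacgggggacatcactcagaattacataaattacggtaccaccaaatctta
Slc17a6 A_52_P8197: taagtgcaaagcataaaacctcctgtgtgt
Slc17a8 A_51_P210350: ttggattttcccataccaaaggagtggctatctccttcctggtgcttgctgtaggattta
Slc1a1 A_51_P110759: gttcacaagatcattggggtcatcttgtaa
Slc1a1 A_52_P637988: cactggtagctgacagccagtgttcggtat
The probes of Slc1a6 and Gls2 lay at chr10:78469306-78469365 and chr10:127711271-127711330, both on the plus strand. No run of more than 8 bases was shared between a probe and one of another member.

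On the 16 arrays between 46.1% and 55.3% of spots were well above background in Cy3. Each slide held 1 array of every group, and a group always lay at the same place on the slide, so place and group cannot be told apart. Spots whose local background lay more than 20 units above the spot's signal had that background reset to the array's median: 4 spots in Cy3 on wild-type 40 days replicate 3, 5 on SOD1G93A 40 days replicate 4 and 63 on SOD1G93A 80 days replicate 4. The cord's own markers were present, with 7 of 7 pan-neuronal genes on the array and 5 of 6 motor neuron genes measurable. Of the 2 probes of choline acetyltransferase, Chat, the brighter was well above background on 0 of 16 arrays and the other on 1. Of 7 sensory ganglion genes on the array 2 were measurable.

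Slc17a6 gave a strong cord signal and Slc17a7 gave practically none. Both Slc17a6 probes were well above background in Cy3 on 16 of 16 arrays, with median spot signals of 652 to 989 for A_51_P174996 and 729 to 1176 for A_52_P8197. The Slc17a7 probe read 42 to 49 in Cy3, close to the local background, and was well above it on 1 of 16 arrays, a wild-type array of 80 days. Slc17a8 was read by A_51_P210350 at 159 to 205 on every array, while its second probe, A_52_P163021, read 40 to 60 and passed on 0 of 16 arrays. Thus 7 of the 9 probes could be tested at either age, and Slc17a7 has no tested value. The 4 remaining probes were above background in Cy3 on 16 of 16 arrays, at means of 444.2 and 179.3 for Slc1a1, 885.2 for Slc1a6 and 637 for Gls2. The signals are of different probes and give no order of abundance between genes.

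**Figure D1:**
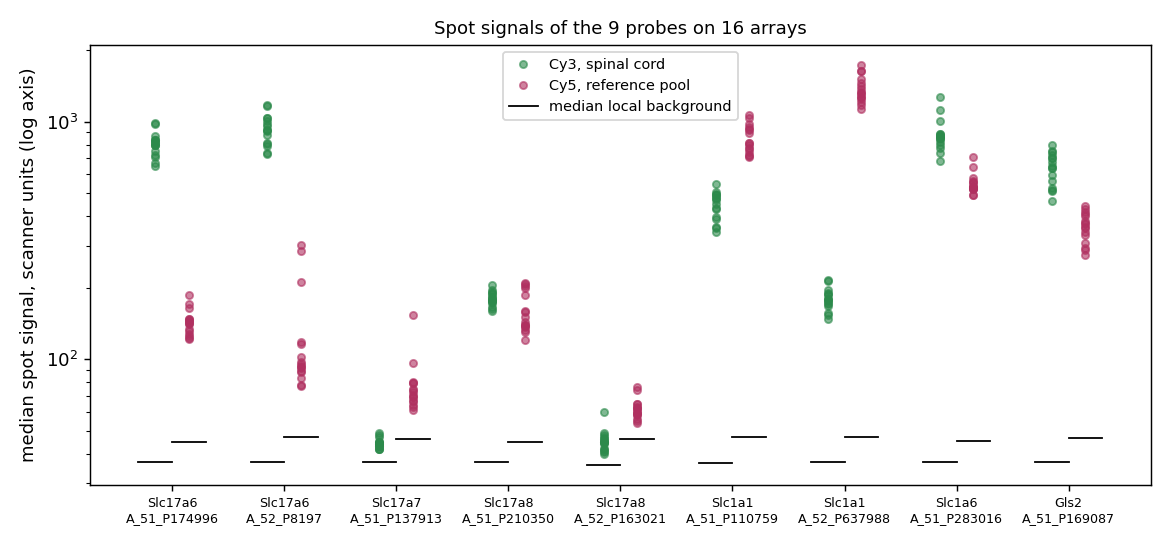
Median spot signals of the 9 probes on each of the 16 arrays, on a log axis in scanner units, with cord (Cy3) and reference pool (Cy5) side by side and short lines at the median local background. Slc17a7 and the second Slc17a8 probe sat near the Cy3 background, and the Cy5 signals of Slc17a6 A_52_P8197 ran from 77 to 302.

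The reference signal differed between probes of the same gene. In Cy5, Slc17a6 A_51_P174996 ran from 122 to 186, whereas A_52_P8197 ran from 77 to 302 and was well above background on 11 of 16 arrays. Its 3 highest Cy5 values, 302, 286 and 211, were on 40 days arrays, namely wild-type replicate 1 and SOD1G93A replicates 2 and 1. The log2 ratios of the pair had a Pearson r of 0.0783 across the 16 arrays, given as a description of arrays that share slides and a reference. For Slc1a1 the Cy5 mean was 851.8 for A_51_P110759 and 1376 for A_52_P637988.

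A probe was called to differ at an unadjusted limma p under 0.05, the study's threshold. Between genotypes 1 of the 7 tested probes passed it at 40 days and 0 of 7 at 80 days. Over all tested probes 4.51% passed at 40 days and 6.86% at 80 days, so neither count stood out from the array. The median genotype difference of the 7 probes was -0.0068 at 40 days, with a range of -0.096 to 0.17, and -0.13 at 80 days, with a range of -0.26 to 0.052. At 80 days 5 of 7 were below 0. In no case did the 4 SOD1G93A arrays lie wholly apart from the 4 wild-type arrays of the same age, which occurred for 2.83% of all tested probes at 40 days and 4.3% at 80 days. No member passed the Benjamini-Hochberg correction over all probes in limma, and neither did any of the 963 and 1482 probes with unadjusted p under 0.05 at 40 and 80 days. With slide as a block, so that arrays of the same slide were compared, 1 of 7 passed at 40 days and 3 of 7 at 80 days, against 4.56% and 7.87% of all tested probes in that fit.

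Slc17a6 was the gene that differed at 40 days, by the dimmer of its 2 probes only. With A_51_P174996 the wild-type arrays of 40 days had log2 ratios of 5.26, 5.12, 5.07 and 5.15. Those of the SOD1G93A mice were 5.41, 5.31, 5.23 and 5.34. All but 1 of the SOD1G93A arrays, replicate 3, lay above every wild-type array. The difference was 0.17 (SE 0.062, 95% interval 0.036 to 0.31), or 1.13-fold, with adjusted p = 0.997. It was positive on 4 of 4 slides, at 0.15, 0.19, 0.16 and 0.19. Beside the unadjusted limma p of 0.0185, the two-sided exact permutation p was 0.0571, where the smallest that 4 arrays against 4 can give is 0.0286. In the Cy3 channel alone the difference was 0.14 (exact permutation p = 0.0286). Without wild-type replicate 3 it was 0.15, and without SOD1G93A replicate 1 it was 0.14, and neither of these passed. It was 0.015 without loess normalization, 0.11 with the scanner's processed signals or with local backgrounds as deposited, and 0.14 without the 3 arrays whose backgrounds were reset, and none of these passed.

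The brighter Slc17a6 probe gave no such difference at 40 days. A_52_P8197 read 4.61, 5.86, 5.93 and 5.91 in the wild-type mice and 5.38, 4.90, 5.98 and 5.76 in the SOD1G93A mice. The 3 lowest of these were the arrays with the high reference signals. The difference was -0.070 with a 95% interval of -0.77 to 0.63 (adjusted p = 0.997), wide enough to hold the change seen with the other probe. In Cy3 alone it was -0.040. The Slc17a6 call at 40 days therefore rested on A_51_P174996.

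**Figure D2:**
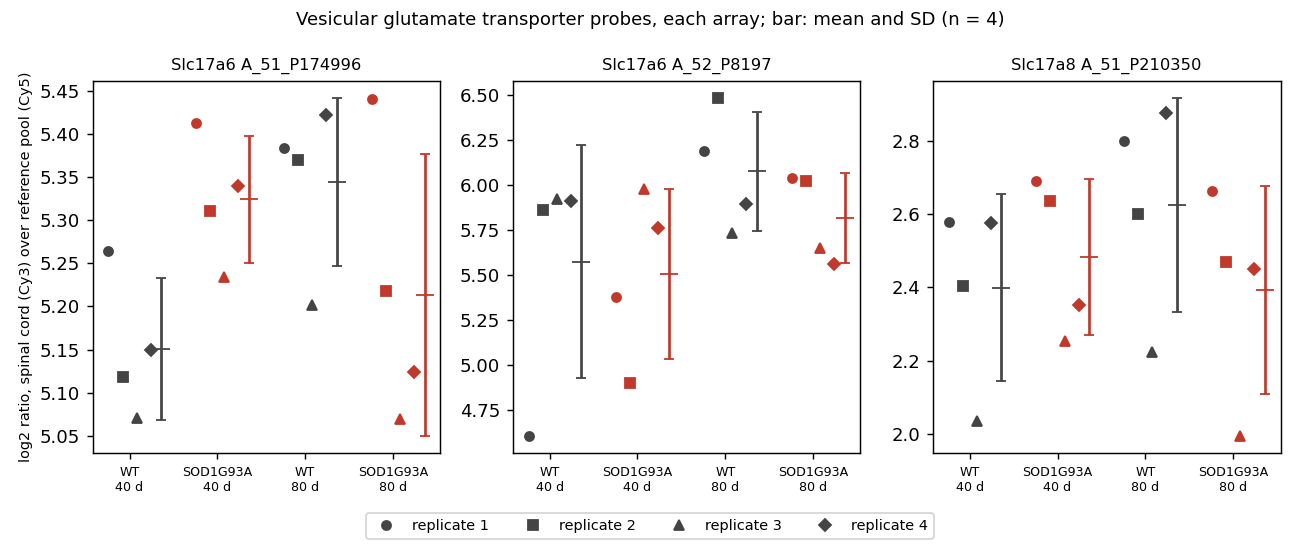
Log2 ratio of cord over reference for the 3 measurable vesicular transporter probes, each point 1 array with a symbol per replicate number (slide), wild-type in grey and SOD1G93A in red, and bars for the mean and SD of 4 arrays. With Slc17a6 A_51_P174996 the group means were 5.15, 5.32, 5.34 and 5.21 from left to right, and replicate 3 of Slc17a8 was the lowest array of every group.

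At 80 days Slc17a6 was lower in the SOD1G93A mice by both probes, without passing the test in either. A_51_P174996 read 5.38, 5.37, 5.20 and 5.42 in wild-type and 5.44, 5.22, 5.07 and 5.12 in SOD1G93A mice, a difference of -0.13 (95% interval -0.33 to 0.066, exact permutation p = 0.257). SOD1G93A replicate 1 was the highest array of its age, and without it the difference was -0.21 and passed (adjusted p = 0.614). A_52_P8197 read 6.19, 6.49, 5.74 and 5.89 in wild-type and 6.04, 6.03, 5.65 and 5.56 in SOD1G93A mice. Its difference was -0.26 (95% interval -0.63 to 0.11, exact permutation p = 0.257), negative on 4 of 4 slides at -0.15, -0.46, -0.086 and -0.33. Leaving out 1 array moved it from -0.12 without wild-type replicate 2 to -0.37 without wild-type replicate 3, and the last of these passed (adjusted p = 0.574). With slide as a block the same difference passed (adjusted p = 0.611).

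The genotype difference of Slc17a6 itself changed between the ages by A_51_P174996. It went from 0.17 at 40 days to -0.13 at 80 days, a change of -0.31 (SE 0.11, 95% interval -0.54 to -0.074). The interaction had an unadjusted limma p of 0.013 and adjusted p = 0.656, and an exact permutation of genotypes within each age gave p = 0.0176. It was negative on 4 of 4 slides, at -0.092, -0.34, -0.30 and -0.49. It was -0.020 without loess, -0.15 with processed signals, -0.37 with local backgrounds as deposited and -0.24 without the 3 arrays whose backgrounds were reset, and none of these passed. Of the 7 tested probes 1 passed this test, against 6.72% of all probes. With A_52_P8197 the change was -0.19 with a 95% interval of -1.0 to 0.64 (exact permutation p = 0.678).

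The ages were then compared within each genotype. From 40 to 80 days A_51_P174996 rose by 0.19 in wild-type mice (SE 0.077, adjusted p = 0.243, exact permutation p = 0.0571), on 4 of 4 slides. It did not pass without wild-type 40 days replicate 3, 80 days replicate 1 or 80 days replicate 4, at 0.17, 0.18 and 0.17. Nor did it pass without loess (-0.0044), with processed signals (0.034), with local backgrounds as deposited (0.54) or without the 3 arrays whose backgrounds were reset (0.17). In SOD1G93A mice it differed by -0.11 (exact permutation p = 0.286). In order of level the groups were wild-type 40 days (5.15 ± 0.082, SD, n = 4), SOD1G93A 80 days (5.21 ± 0.16), SOD1G93A 40 days (5.32 ± 0.074) and wild-type 80 days (5.34 ± 0.098). The gap between neighbours in that order was smaller than the larger of their SDs in each case. A_52_P8197 differed between the ages by 0.50 in wild-type (exact permutation p = 0.257) and 0.31 in SOD1G93A mice (exact permutation p = 0.314), beside the high reference signals on 3 of the 40 days arrays.

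Slc17a8 gave a low cord signal, and its values differed between slides. By A_51_P210350 the wild-type arrays of 40 days read 2.58, 2.40, 2.04 and 2.58, and the SOD1G93A arrays 2.69, 2.64, 2.25 and 2.35. At 80 days the wild-type arrays read 2.80, 2.60, 2.22 and 2.88, and the SOD1G93A arrays 2.66, 2.47, 2.00 and 2.45. Replicate 3 was the lowest array of all 4 groups, and on that slide the Cy5 signal of the probe was 200 to 210, the highest 4 values of the 16 arrays. The cord signal of the same arrays was 159 to 176.5.

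The genotype difference of Slc17a8 was 0.084 at 40 days (95% interval -0.22 to 0.39, exact permutation p = 0.629) and -0.23 at 80 days (95% interval -0.59 to 0.13, exact permutation p = 0.343). At 80 days it was negative on 4 of 4 slides, at -0.14, -0.13, -0.23 and -0.43, and with slide as a block it passed (adjusted p = 0.611). The change of the difference between ages was -0.31 (exact permutation p = 0.238), negative on 4 of 4 slides, and it passed with the block (adjusted p = 0.642). In wild-type mice it differed by 0.23 between the ages (exact permutation p = 0.257), at 0.22, 0.20, 0.19 and 0.30 on the 4 slides, and passed with the block (adjusted p = 0.202). Without wild-type 80 days replicate 3 the genotype difference at 80 days was -0.36 and passed (adjusted p = 0.565), and without SOD1G93A replicate 3 it was -0.097 and did not. In Cy3 alone the genotype differences were 0.084 at 40 days (exact permutation p = 0.0286) and -0.15 at 80 days (exact permutation p = 0.0571). By limma on Cy3 alone the one at 80 days passed (adjusted p = 0.936), as did the interaction at -0.24 (adjusted p = 0.9998). The age differences in Cy3 alone also passed, at 0.12 in wild-type (adjusted p = 0.344) and -0.11 in SOD1G93A mice (adjusted p = 0.390). The directions of the genotype differences were those of Slc17a6 A_51_P174996 at either age.

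The neuronal uptake carrier Slc1a1 fell with age in either genotype by 1 probe, the dimmer of its pair. A_52_P637988 read 0.35, 0.39, 0.31 and 0.21 in wild-type mice of 40 days and 0.16, -0.040, 0.072 and 0.17 in those of 80 days. The groups did not overlap, as for 7.62% of all tested probes in that comparison, and each slide gave a negative difference. The age difference was -0.22 (SE 0.069, unadjusted limma p of 0.00505, adjusted p = 0.127, exact permutation p = 0.0286). In SOD1G93A mice the readings were 0.088, 0.27, 0.22 and 0.29 at 40 days and 0.083, 0.16, -0.082 and 0.10 at 80 days, and these groups overlapped. The difference of -0.15 passed (adjusted p = 0.275, exact permutation p = 0.0857). It did not pass with slide as a block, nor without SOD1G93A 40 days replicate 2, 3 or 4 or 80 days replicate 1 or 3, and without the last of these it was -0.10. Without loess it was -0.041. The cord signal of this probe was 148 to 215 against 1129 to 1736 in the reference.

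The brighter Slc1a1 probe did not show the age difference in wild-type mice. A_51_P110759 read 2.33, 2.30, 2.17 and 2.18 at 40 days and 2.31, 2.30, 2.07 and 2.23 at 80 days, a difference of -0.017 (95% interval -0.18 to 0.15, exact permutation p = 0.914). In SOD1G93A mice it read 2.26, 2.28, 2.39 and 2.02 at 40 days and 2.15, 2.17, 1.99 and 2.01 at 80 days. That difference was -0.16 (exact permutation p = 0.143), negative on 4 of 4 slides, and it passed with slide as a block (adjusted p = 0.279).

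Slc1a1 did not pass between genotypes. By A_51_P110759 the difference was -0.0068 at 40 days (95% interval -0.19 to 0.18, exact permutation p = 0.971). At 80 days it was -0.15 (95% interval -0.31 to 0.017, exact permutation p = 0.114), with the smallest limma p of the 7 probes at that age. It was negative on 4 of 4 slides, at -0.16, -0.13, -0.086 and -0.22, and passed with slide as a block (adjusted p = 0.631). Without wild-type 80 days replicate 3 it was -0.20 and passed (adjusted p = 0.545). By A_52_P637988 the differences were -0.096 at 40 days (exact permutation p = 0.171) and -0.025 at 80 days (exact permutation p = 0.686).

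**Figure D3:**
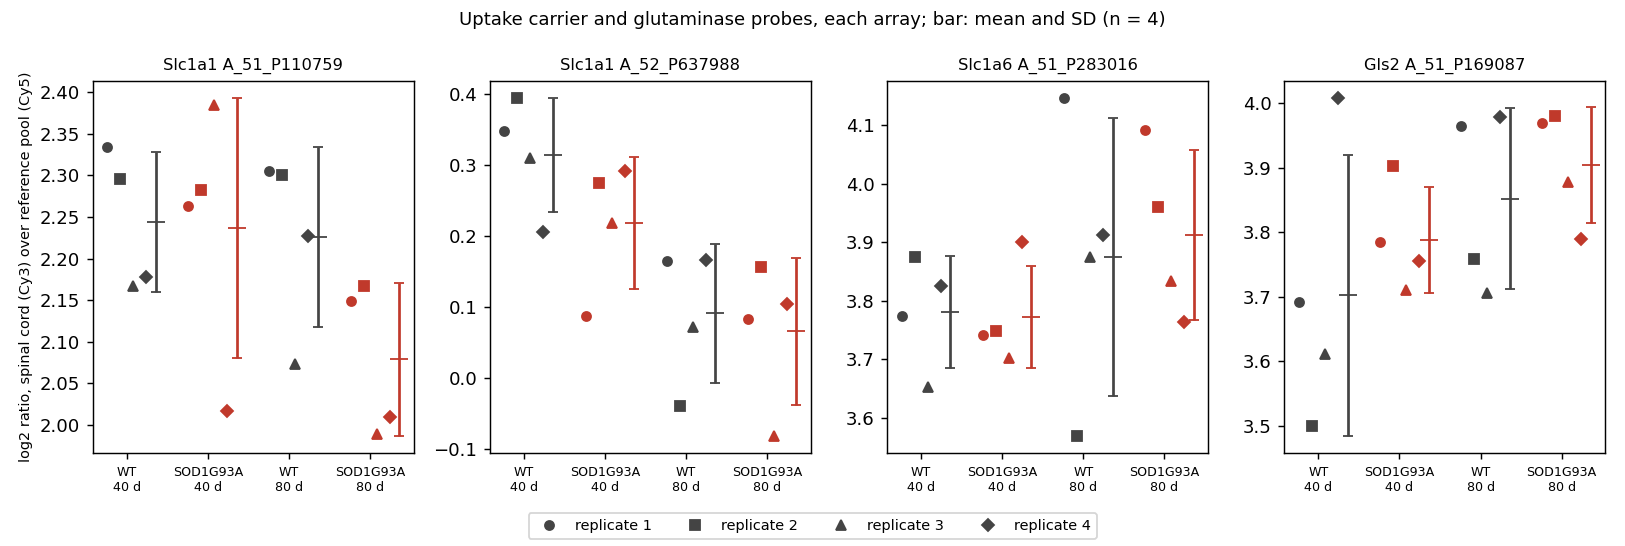
Log2 ratio of cord over reference for the Slc1a1, Slc1a6 and Gls2 probes, each point 1 array with a symbol per replicate number (slide), wild-type in grey and SOD1G93A in red, and bars for the mean and SD of 4 arrays. Slc1a1 A_52_P637988 lay at 0.21 to 0.39 in wild-type mice of 40 days and at -0.040 to 0.17 in those of 80 days.

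Slc1a6 showed no difference between groups that passed the test on all arrays. Its single probe, A_51_P283016, read 3.77, 3.87, 3.65 and 3.83 in wild-type and 3.74, 3.75, 3.70 and 3.90 in SOD1G93A mice of 40 days, a difference of -0.0083 (95% interval -0.16 to 0.14, exact permutation p = 0.943). At 80 days the wild-type arrays spread from 3.57 to 4.15 and the SOD1G93A arrays from 3.76 to 4.09, with a difference of 0.037 (95% interval -0.23 to 0.30, adjusted p = 0.962). The age differences were 0.094 in wild-type (exact permutation p = 0.429) and 0.14 in SOD1G93A mice (exact permutation p = 0.171). Leaving out 1 array moved the wild-type value from 0.0040 without 80 days replicate 1 to 0.20 without 80 days replicate 2, and the last of these passed (adjusted p = 0.305). Of 5 genes listed as markers of Purkinje cells all 5 were measurable in these cords.

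Gls2 was close in all 4 groups, with means of 3.70 ± 0.22 (SD, n = 4) in wild-type and 3.79 ± 0.082 in SOD1G93A mice of 40 days, and 3.85 ± 0.14 and 3.90 ± 0.089 at 80 days. At 40 days the wild-type arrays read 3.69, 3.50, 3.61 and 4.01, and the last of these lay above every SOD1G93A array. The genotype difference was 0.086 (95% interval -0.14 to 0.31, exact permutation p = 0.514), and without wild-type replicate 4 it was 0.19 and passed (adjusted p = 0.516). At 80 days it was 0.052 (95% interval -0.13 to 0.23, exact permutation p = 0.543), and 0.15 in the deposited log2 values, which hold the Cy3 channel alone, where it passed (adjusted p = 0.931). The age differences were 0.15 in wild-type (exact permutation p = 0.286) and 0.12 in SOD1G93A mice (exact permutation p = 0.114), the latter positive on 4 of 4 slides. Without wild-type 40 days replicate 4 the wild-type value was 0.25 and passed (adjusted p = 0.149), and in the Cy3 channel alone the SOD1G93A value was 0.29 and passed (adjusted p = 0.231).

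Across ages, 2 of the 7 probes passed in wild-type mice, 1 higher and 1 lower, against 15.2% of all tested probes. In SOD1G93A mice 1 of 7 passed, lower, against 16.9%. With slide as a block 3 of 7 passed in wild-type mice, 1 of 7 in SOD1G93A mice and 2 of 7 in the interaction, against 15.7%, 16.7% and 6.86% of all tested probes. No probe of the members separated the ages fully in SOD1G93A mice, as 12.4% of all tested probes did. The age changes of both genotypes came from 1 fit of all 16 arrays with a shared estimate of spread. Each compares the arrays of its own genotype, and the interaction above is the test of whether they differ.

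**Figure D4:**
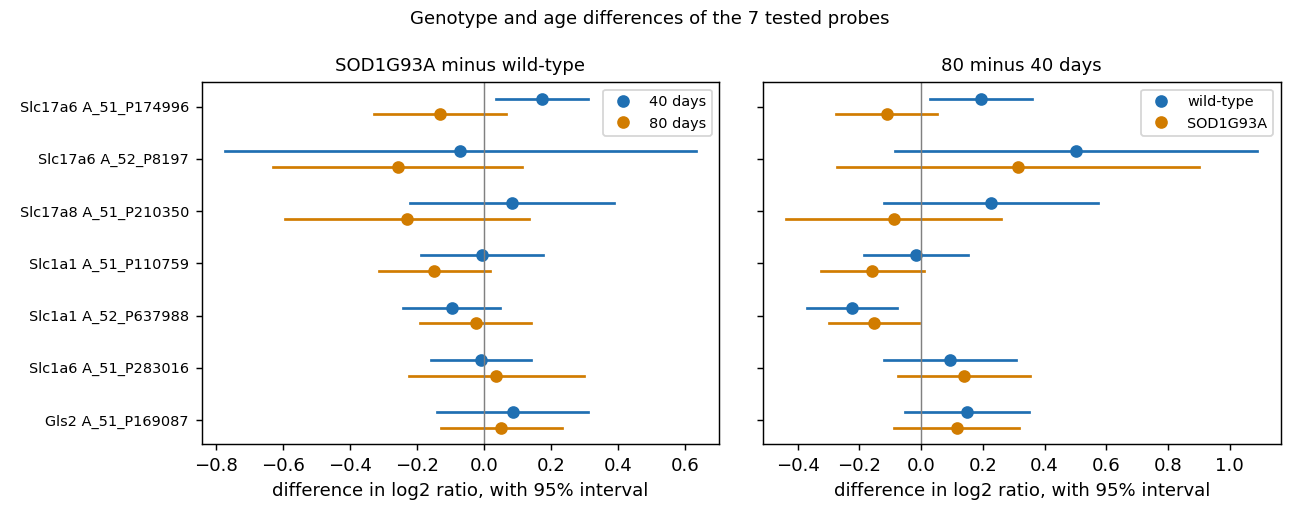
Differences in log2 ratio of the 7 tested probes with 95% intervals from limma, SOD1G93A minus wild-type at each age on the left and 80 minus 40 days in each genotype on the right. Intervals that leave out 0 are those of Slc17a6 A_51_P174996 at 40 days and with age in wild-type mice, and of Slc1a1 A_52_P637988 with age in both genotypes.

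Among other genes of glutamate handling, 2 glial carriers passed at 40 days, where 4.51% of all tested probes passed. Of the 4 measurable carriers of the Slc1 family outside the members, Slc1a2 and Slc1a3, which take up most synaptic glutamate into astrocytes, were higher in SOD1G93A mice of 40 days, by 0.19 each (adjusted p = 0.997 for both). At 80 days Slc1a2 differed by -0.27 and passed (adjusted p = 0.706). Of the 2 tested Slc1a2 probes 1 passed at each age. Slc1a4 did not pass by its brighter probe, but the other of its 2 tested probes passed at 80 days. The change of the genotype difference between ages passed for both genes, at -0.45 for Slc1a2 (adjusted p = 0.537) and -0.40 for Slc1a3 (adjusted p = 0.656).

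Enzymes of glutamate and glutamine metabolism, among them glutamine synthetase, Glul, gave 0 calls of 11 measurable genes at either age, with medians of -0.0027 and -0.0020. Glul was higher with age in wild-type mice by 0.33 (adjusted p = 0.212), and Cad, of pyrimidine synthesis, in SOD1G93A mice by 0.14 (adjusted p = 0.256). The glutamine transporters Slc38a1 and Slc38a5 were lower in SOD1G93A mice of 80 days, 2 of 8 measurable genes of their list. Their differences were -0.21 (adjusted p = 0.694) and -0.36 (adjusted p = 0.667). At 40 days 0 of 8 passed by the brightest probe. Of the 4 measurable Slc38a1 probes 1 passed at each age. Over all tested probes 4.51% passed at 40 days and 6.86% at 80 days. Of 5 measurable genes for proteins that bind Slc1a1 or Slc1a6, 0 passed at either age by the brightest probe. The dimmer of the 2 tested Arhgef11 probes passed at 80 days. Of the 6 further Slc17 genes 1 was measurable, Slc17a5, and it did not pass.

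Some cell type markers passed beside the Slc17a6 difference at 40 days. Of all tested probes 4.51% passed there, and no adjusted p was below 0.997. Astrocyte genes Gfap and S100b were higher in SOD1G93A mice, 2 of 7 measurable, and 1 of the 3 tested Gfap probes passed. The list's summed Cy3 signal was 45490 to 58360 in wild-type and 52350 to 61290 in SOD1G93A mice. Sums here and below are of median spot signals, not background-corrected or normalized, so bright arrays and genes weigh most. Mean Cy3 signals were 36450 for S100b and, among inhibitory neuron genes, 11400 for Slc32a1. The oligodendrocyte gene Mbp was higher, 1 of 5, all 5 positive, with sums of 39950 to 52310 and 46660 to 53670. None of 9 blood, root and meningeal genes passed, none was positive, and their median was -0.66, with sums of 3393 to 6664 and 2814 to 5174. Of 7 measurable markers of excitatory dorsal horn neurons 0 passed, with sums of 1846 to 2094 and 1712 to 2206, and Lmx1b and Prrxl1 were well above background on 0 of 16 arrays. The sensory ganglion gene Calcb, for a calcitonin-related peptide, was lower, with a difference of -0.29 (adjusted p = 0.997), 1 of 2 measurable, both negative, with sums of 306 to 343 and 256.5 to 307.5. Of 5 measurable inhibitory neuron genes 0 passed and 5 were positive, with a median of 0.11 and sums of 10850 to 15260 and 10860 to 15300. Their part in the Slc17a6 values was not tested.

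With age in wild-type mice, where Slc17a6 A_51_P174996 rose, 4 of the 7 measurable dorsal horn markers were higher: Tac1 by 0.51, Grp by 0.44, Ebf1 by 0.24 and Cck by 0.17, where 15.2% of all tested probes passed in either direction. Adjusted over all probes none of these passed, the lowest being Grp (adjusted p = 0.111). All 7 were positive, with a median of 0.24, and the summed Cy3 signal went from 1846 to 2094 at 40 days to 2134 to 2632 at 80 days. In SOD1G93A mice 1 of the 7, Ebf1, passed, with a median of 0.14 and sums of 1712 to 2206 and 1953 to 2405. The interaction passed for 0 of the 7, and all 7 had negative values with a median of -0.11. Among other neuron and astrocyte markers it passed for Syt1 (-0.43, 1 of 7 pan-neuronal genes) and Pvalb (-0.34, 1 of 5 inhibitory genes). It also passed, with negative values, for Gfap (-0.41, by 1 of its 3 tested probes) and S100b, 2 of 7 astrocyte genes. The motor neuron gene Slc18a3 passed at 0.36, 1 of 5. Over all tested probes 6.72% passed the interaction, and no adjusted p was below 0.50. Other cell types moved with age in wild-type mice too. The oligodendrocyte gene Mog fell by 0.70, a change that also passed the adjustment in limma (adjusted p = 0.00685), and 4 of the 5 oligodendrocyte genes were negative, with sums of 39950 to 52310 at 40 days and 36260 to 42300 at 80 days. Their median was -0.14. In SOD1G93A mice 2 of the 5, Mog and Mobp, were lower with age, where 16.9% of all tested probes passed, and the median was -0.22. In wild-type mice the astrocyte gene Aldh1l1 (1 of 7), the pan-neuronal gene Syt1 (1 of 7) and the motor neuron gene Slc5a7 (1 of 5) were higher, by 0.23, 0.31 and 0.20. The part of these markers in the Slc17a6 change was not tested. At 80 days Slc17a6 and Slc17a8 lay below wild-type in SOD1G93A mice without passing, and 6.86% of all tested probes passed. Of 7 pan-neuronal genes 1 passed, Syt1, with a difference of -0.33 (adjusted p = 0.718), by 1 of its 5 tested probes. Of the 7 dorsal horn markers 0 passed and 1 was positive, with a median of -0.13. The oligodendrocyte genes Mog and Cnp were higher, 2 of 5.

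The genes whose log2 ratios ran most like those of each member over the 16 arrays were named without a test, since arrays share slides and the reference. For the brighter Slc17a6 probe they were Dbr1, Fcna and Cox6b2, with Pearson r of 0.773 to 0.756. For Slc17a8 they were Mpped1, 2900052N01Rik and Nrip3 (r = 0.886 to 0.878). For Slc1a1 they were Glcci1, 6430502M16Rik and 2310030N02Rik (0.873 to 0.853), for Slc1a6 Ndn, G431001I09Rik and LOC331392 (0.911 to 0.844), and for Gls2 4933433P14Rik, Ttll5 and Tubg2 (0.916 to 0.889). The 95th percentile of r over the 21758 probes compared was between 0.443 and 0.628. Ratios of the brighter Slc17a6 probe were lowest on the arrays with its highest reference signals, and its r with the dimmer Slc17a6 probe was 0.0783. The genes named for Slc17a6 therefore describe the brighter probe alone, and none were sought for A_51_P174996, which carried the calls.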

How the data were processed

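Spot intensities were deposited by the authors as 2-colour Agilent scanner output, with Feature Extraction 9.5.3.1 per the file headers, as median and mean signals, backgrounds and flags per spot, not normalized. The deposited log2 table, normalized by the authors, had column medians of 6.40 at 40 days and 6.09 at 80 days and a Pearson r across probes of at least 0.998 with the log2 Cy3 signal against 0.322 to 0.336 with the log2 ratio. It holds the Cy3 channel with no centring, each age scaled apart, and served as an alternative within an age. With limma 3.58.1 in R 4.3.3, median signals were corrected by normexp (offset 50), normalized by loess within arrays and Aquantile between them. Local backgrounds over 20 units above their spot's signal were first reset to the array's median. The 1639 control spots were left out of the tests, outlier spots were left out, and spots of a probe were averaged. The log2 ratio is Cy3 (cord) over Cy5 (reference), as the labels give the dyes, with no dye swaps. A probe was tested where Cy3 was well above background on 3 of 4 arrays of a group. Each age was fitted on its 8 arrays with lmFit and eBayes, and the interaction and age changes on 16, after the study's rule of an unadjusted p under 0.05, with Benjamini-Hochberg values added. Single probes also had two-sided exact permutation tests. The labels call the arrays biological replicates, and the 4 arrays per group limit the precision. No 2 arrays held identical values. Scripts were tested on simulated data. Every probe of the members is named. The brightest tested one was to carry the gene, but outside the alternatives the calls of Slc17a6 and Slc1a1 came from the dimmer probe of each pair. Listed genes are named by their brightest probe. Not all with p under 0.05 are named, among those left out Slc38a2 with age in both genotypes and Umod at 40 days. A gene left out of each of 2 lists is not reported here. Members and lists, and the reset, were chosen with earlier results of these data known. Slide was read from the headers and used as a block among the alternatives.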

Additional observations from a re-analysis of the deposited data

Results flagged for a closer look

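The genotype difference of Slc17a6 A_51_P174996 differed between the ages, by -0.31 from 40 to 80 days, as tested by the interaction in limma (adjusted p = 0.656, exact permutation p = 0.0176). In the wild-type group of 40 days, replicate 1 of Slc17a6 A_52_P8197 lay far below the other 3 arrays at 4.605, with a reference signal of 302 against 88 to 118.5 on the others. In the SOD1G93A group of 80 days, replicate 3 of Slc17a8 A_52_P163021 lay apart at -0.1036, a probe that was well above background in Cy3 on 0 of 16 arrays. Of 36 groups of 4 arrays examined for such a gap 2 had one, and chance gives about 1 in 20. Causes were not tested.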

How the results depend on the processing

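For the 35 changes of the 7 tested probes, 383 of 448 values under other settings and 287 of 336 with 1 array left out kept the direction and the side of the threshold. The fall of Slc1a1 A_52_P637988 with age in wild-type mice kept both under all settings run, as did the Slc17a6 A_51_P174996 interaction with any 1 array left out, at -0.38 to -0.26. Below, counts are of probes with unadjusted limma p under 0.05, and A_51 and A_52 tell the paired probes apart. The cause was not tested.

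With local backgrounds as deposited, all-probe counts were 249 at 40 days and 792 for the interaction. Member counts were 0 at 40 days, 0 for the interaction, 1 with age in wild-type and 0 in SOD1G93A mice. Slc17a6 A_51 gave 0.11, -0.37 and 0.54 at 40 days, in the interaction and with age in wild-type mice, and 0.17 in SOD1G93A mice. Slc17a8 gave -0.0095 at 40 days and 0.11 with age in SOD1G93A mice, Gls2 and Slc1a6 both -0.017 at 80 days, Slc1a1 A_51 0.070 with age in wild-type and A_52 -0.11 in SOD1G93A mice. With no background subtraction, Slc1a1 A_52 gave 0.014 at 80 days and -0.13 with age in SOD1G93A mice, leaving 0 members there. With mean signals, 2 members passed with age in SOD1G93A mice and the Gls2 interaction was 0.0090.

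With processed signals, 1615 probes passed at 40 days, and members numbered 0 at 40 days, 0 in the interaction, and 1 and 2 with age in wild-type and SOD1G93A mice. Slc17a6 A_51 gave 0.11 at 40 days, -0.15 in the interaction and 0.034 with age in wild-type mice, Slc1a6 0.037 and Slc1a1 A_51 0.020 at 40 days, and Slc1a1 A_52 0.0040 at 80 days. Without loess, 4308 probes passed the interaction, and members numbered 0 at 40 days, 0 in the interaction, and 1 and 0 with age in wild-type and SOD1G93A mice. At 40 days Slc17a6 A_51 gave 0.015, Gls2 -0.012 and Slc17a8 -0.13, and at 80 days Slc1a1 A_52 gave 0.089. The interactions were -0.020 for Slc17a6 A_51, 0.12 for A_52 and for Gls2, and 0.083 for Slc1a1 A_51. With age they were -0.0044 for Slc17a6 A_51, -0.0093 for Gls2 and -0.055 for Slc1a6 in wild-type mice, and 0.062 for Slc17a8 and -0.041 for Slc1a1 A_52 in SOD1G93A mice.

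With Cy3 alone, 559 probes passed at 40 days, and members numbered 1 at 80 days, 2 in the interaction and 2 with age in SOD1G93A mice. Slc17a8 was among the members passing in each of these, and it also passed with age in wild-type mice. Gls2 gave -0.022 at 40 days and 0.15 in the interaction, and with age in SOD1G93A mice Slc1a1 A_52 gave -0.13 and Slc17a6 A_52 -0.16. The deposited log2 table gave 538 probes at 40 days, 2 members at 80 days (Slc17a8 at -0.15 and Gls2 at 0.15) and -0.0060 for Gls2 at 40 days. With no filter on dim probes, counts were 1900, 2420, 2473 and 5025 at 40 days, at 80 days, for the interaction and with age in wild-type mice. Array weights gave 2392 probes at 80 days, 4 and 0 members with age in wild-type and SOD1G93A mice, 0.15 for Slc17a6 A_52 at 40 days, 0.012 for Slc1a1 A_52 at 80 days and -0.13 for it with age in SOD1G93A mice. A stricter filter, kept outlier spots and all 16 arrays for the spread moved no call of a member.

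With the replicate block (slide), members numbered 1 at 40 days, 3 at 80 days, 2 in the interaction, and 3 and 1 with age in wild-type and SOD1G93A mice, and Slc1a1 A_52 gave -0.15 with age in SOD1G93A mice, no longer passing. All-probe counts were 973, 1700, 1505, 3440 and 3659 in the same order. Replicate number is the slide, but deviations of same-numbered arrays within an age correlated at -0.064 to 0.198, so the numbers did not pair the samples across all probes. As a setting chosen after seeing the data, the 3 arrays with reset backgrounds were left out together. Members then numbered 0 at 40 days, 0 in the interaction and 1 with age in wild-type mice. Slc17a6 A_51 gave 0.14, -0.24 and 0.17 there, Slc1a1 A_51 0.041 at 40 days, the Gls2 interaction 0.024 and Slc1a1 A_52 -0.14 with age in SOD1G93A mice, none passing.

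Leaving out 1 array at a time gave 725 to 1913 probes at 40 days (the highest without wild-type replicate 4) and 977 to 1853 at 80 days (the lowest without SOD1G93A replicate 3). Members numbered 0 to 2 at 40 days, 0 to 3 at 80 days, 1 to 2 in the interaction, 1 to 3 with age in wild-type and 0 to 2 in SOD1G93A mice. At 40 days the ranges were 0.14 to 0.21 for Slc17a6 A_51, -0.39 to 0.13 for A_52, -0.037 to 0.16 for Slc17a8, -0.051 to 0.023 for Slc1a6 and -0.056 to 0.066 for Slc1a1 A_51. At 80 days they were -0.065 to 0.13 for Slc1a6 and -0.069 to 0.024 for Slc1a1 A_52. The interactions ran from -0.14 to 0.034 for Gls2, -0.057 to 0.14 for Slc1a6 and -0.39 to 0.14 for Slc17a6 A_52. With age in wild-type mice Slc17a6 A_51 ran from 0.17 to 0.24 and Slc1a1 A_51 from -0.043 to 0.034, and in SOD1G93A mice Slc17a8 from -0.18 to 0.045 and Slc1a1 A_52 from -0.20 to -0.10.

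The 4 arrays per group, no dye swap, reference signals near background for Slc17a6 A_52, and the fixed place of each group on the slide limit all values, and Slc17a7 cannot be compared at this signal.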
